A study of Mus musculus with 2 samples.

Results

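Trdc encodes the constant region of the T cell receptor delta chain, and the barcodes described here were selected from mouse ileum T cells by their Trdc molecules. A barcode is the sequence that marks 1 droplet, and a UMI is a tag that marks 1 captured RNA molecule. Barcodes were kept when they had at least 500 UMIs, at least 300 genes, at most 10% of UMIs on mitochondrial genes and at most 2 UMIs of the pseudogene Rps19-ps6. A kept barcode was a member when it had at least 2 Trdc UMIs and none of Trac (the alpha chain constant region), Cd4, Cd8b1 (the CD8 beta chain) or Mki67 (a marker of cycling cells). Of 10599 kept barcodes 1607 were members. They numbered 850 of 5634 in the library labelled Control, or 15.1% (14.2 to 16.0), and 757 of 4965 in the library labelled SAP, or 15.2% (14.3 to 16.3). The intervals are exact Clopper-Pearson 95% intervals, which like every interval given here cover counting error only.

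Gamma delta T cells recognise their targets through a receptor made of a gamma and a delta chain in place of the alpha and beta chains. In the mouse intestine many of them lie between the cells of the epithelium, often carry the CD8 alpha-alpha homodimer, and hold ready-made cytotoxic granules. Their gamma chain is built from 1 of several clusters of variable and constant segments, and the cluster that holds Trgv7 and Trgc1 is the one best known from intraepithelial cells.

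The series concerns gut T cells of GF mice set together with dendritic cells that had met phages taken from healthy or from SAP mice, and a proximity labelling method, FucoID, that puts a fucosyl-biotin tag on the T cells the dendritic cells touched. Each library was made from ileum T cells with the 10x Chromium 3' kit, and the labels expand neither GF nor SAP. The labels also do not say which sorted fraction was loaded, what age or strain the mice were, or how many mice went into a library, and Control was read as the phages of healthy mice only as the library set against SAP. With 1 library in each group no difference between the libraries has a replicate check, and no test was made.

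The 2 libraries were of like depth. They held 19142384 and 19144320 UMIs on 5737 and 5203 deposited barcodes, and members had a median of 3174 UMIs in Control and 3435 in SAP, close to the 3128.5 and 3400.5 of the other kept barcodes. Mitochondrial genes took a median of 1.15% and 1.40% of member UMIs. Levels below are CPM, the UMIs of a gene summed over a population per 1000000 UMIs of that population, and values are given as Control and then SAP. The libraries shared 6 barcode sequences, of which 1 belonged to a member in both.

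To show what separates the genes on which the gamma chain counts rest, the opening 120 bases of the first constant exon are printed from the GRCm38 assembly with GENCODE annotation, all of them coding. In the 3 gamma genes capitals mark the 15 positions where the genes do not all carry the same base. Trgc1 lies at chr13:19214103-19214222 on the plus strand, Trgc2 at chr13:19307432-19307551 on the minus strand, Trgc4 at chr13:19344558-19344677 on the plus strand, and Trdc, shown because its UMIs chose the members, at chr14:54142851-54142970 on the plus strand.
Trgc1: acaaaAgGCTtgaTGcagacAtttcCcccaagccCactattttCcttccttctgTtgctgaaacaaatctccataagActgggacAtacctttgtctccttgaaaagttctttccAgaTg
Trgc2: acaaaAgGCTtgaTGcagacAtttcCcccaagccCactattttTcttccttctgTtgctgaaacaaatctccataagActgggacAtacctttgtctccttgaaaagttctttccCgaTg
Trgc4: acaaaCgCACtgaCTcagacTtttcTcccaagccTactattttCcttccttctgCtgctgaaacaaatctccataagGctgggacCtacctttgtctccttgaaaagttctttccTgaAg
Trdc: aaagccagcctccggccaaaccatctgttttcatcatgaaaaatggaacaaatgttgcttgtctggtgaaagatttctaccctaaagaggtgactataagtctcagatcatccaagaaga

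Over the whole 330 bases of that exon Trgc1 and Trgc2 were 97.3% identical, and Trgc4 was 82.1% identical to Trgc1 and 81.5% to Trgc2. Behind the stop codon, where most reads of a 3' kit fall, Trgc1 and Trgc2 were 94.6% identical and Trgc4 59.8% and 61.6%. Reads of Trgc1 and Trgc2 are therefore hard to tell apart and their separate levels are uncertain, while Trgc4 was the more distinct gene.

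The rule itself fixed the members' Trdc, Trac, Cd4, Cd8b1 and Mki67 values, which are given only as a description. Members had a median of 3 Trdc UMIs in Control and 4 in SAP, with highest values of 19 and 22, and 260 and 216 of them sat at the minimum of 2. Barcodes that met the rest of the rule with 1 Trdc UMI numbered 270 and 252. Just inside the threshold, at exactly 2 Trdc UMIs, Trgc1 stood at 516 and 511 CPM, Fcer1g at 1130 and 1139, Plac8 at 696 and 668 and Cd6 at 17.2 and 24.7. Just outside it, at 1 Trdc UMI, the same genes stood at 409 and 471, 936 and 981, 797 and 685, and 32.4 and 52.6 CPM. Cd6 was thus higher just outside in both libraries, and the barcodes there were shallower, with medians of 2320.5 and 1619 UMIs against 2578.5 and 2884.

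The demand for no Trac UMI removed many barcodes that had Trdc. Of 1929 and 1766 kept barcodes with at least 2 Trdc UMIs, 1041 (54.0%) and 977 (55.3%) also had a Trac UMI, with a median of 1, against 71.8% and 71.6% of barcodes with no Trdc UMI. At an equal depth of 1000 UMIs per barcode, a Trac UMI was found in 22.8% of the Control barcodes with 2 to 4 Trdc UMIs and in 22.8% of those with 5 or more, against 47.5% of those with none. The same shares were 21.4%, 23.7% and 46.7% in SAP, so the shares with Trdc lay below those without it and were alike at 2 to 4 and at 5 or more Trdc UMIs.

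**Figure D1:**
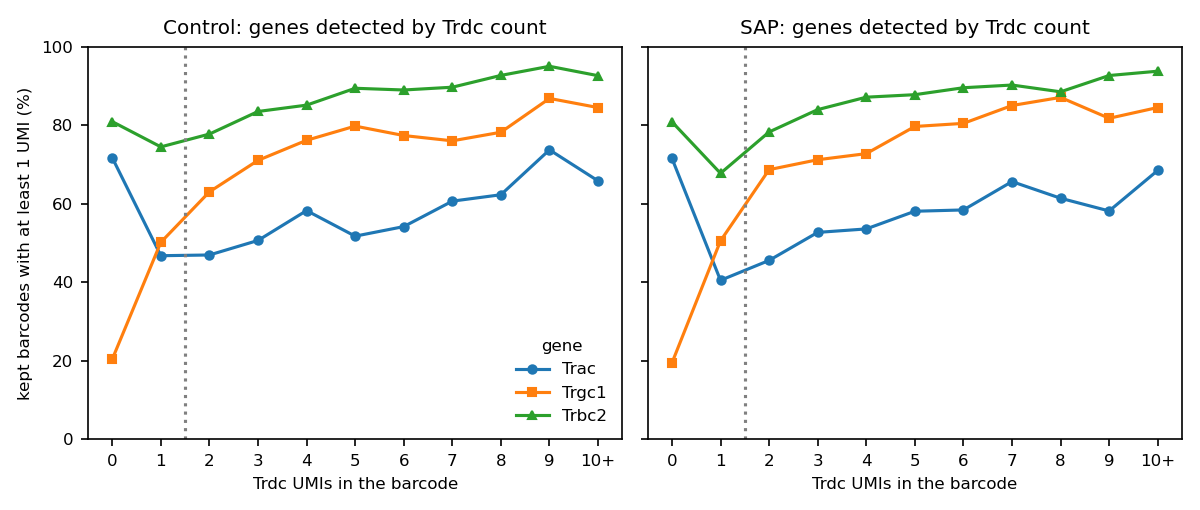
Percent of kept barcodes with a UMI of Trac, Trgc1 or Trbc2 (vertical axis) by the number of Trdc UMIs (horizontal axis), for Control and SAP, with a dotted line at the members' minimum of 2. Trgc1 goes from 20.4% and 19.4% at 0 Trdc UMIs to 84.6% and 84.6% at 10 or more, while Trac goes from 71.8% and 71.6% to 47.0% and 45.6% at 2 and is at 65.9% and 68.5% in the deepest barcodes.

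Members were compared with the 975 and 912 barcodes that had Trdc and Trac together and otherwise met the rule. Of 5839 genes with at least 20 CPM and 50 UMIs, 2 lay at least 2-fold above and 1 at least 2-fold below in members in both libraries, which is 0.0343% and 0.0171%. Fcer1g stood at 1671 and 1559 CPM in those barcodes and Trgc1 at 746 and 764. Their Cd5 level was 2.83 and 5.96 CPM, against 2.15 and 1.86 in members, and their Cd6 level 10.6 and 15.9 CPM, against 18.3 and 17.5. They were deeper, with medians of 3866 and 4189 UMIs, and the part of depth or of droplets with more than 1 cell in the Trac UMIs was not tested. The members are therefore those Trdc barcodes in which no Trac UMI was captured, and are not all of the barcodes with this expression profile.

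The label of gamma delta T cells was checked on its markers. A UMI of the CD3 genes Cd3d, Cd3e or Cd3g, the signalling chains of any T cell receptor, was present in 843 of 850 and 752 of 757 members, and one of Trgc1, Trgc2 or Trgc4 in 722 and 659. A UMI of the beta chain constant genes Trbc1 or Trbc2, markers of alpha-beta cells, was present in 764 and 685, more than had a gamma constant gene. Against the other kept barcodes without a Trdc UMI, the member ratio was 0.937 and 0.883 for Trbc1 and 0.658 and 0.659 for Trbc2. Neither was thus 2-fold lower in members, and these 2 markers did not go with the label. For comparison, 3 populations of alpha-beta T cells were taken from barcodes with at least 2 Trac UMIs, no Trdc UMI and no Mki67 UMI: CD8 alpha-alpha cells (851 and 709 barcodes with Cd8a and neither Cd8b1 nor Cd4), CD8 alpha-beta cells (286 and 286 with Cd8b1 and no Cd4) and CD4 cells (140 and 119 with Cd4 and no Cd8b1).

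Trgc1 was the constant gene that set members apart. It stood at 553 and 590 CPM in members, 188 and 190 in CD8 alpha-alpha cells, 47.6 and 36.8 in CD8 alpha-beta cells and 52.6 and 102 in CD4 cells, and both member values lay above all of the others. At a depth of 1000 UMIs 39.2% and 42.5% of members had a Trgc1 UMI, against 5.07% and 5.08% of CD4 cells, in which the gene would mark background. The shares at full depth were 66.7% and 71.3%, against 8.57% and 16.8% in CD4 cells, whose median depth was 3742 and 3815 UMIs.

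The other label markers did not separate members from CD8 alpha-alpha cells. Trgc2 was at 153 and 158 CPM in members and 187 and 222 in CD8 alpha-alpha cells, and Trgc4 at 221 and 194 against 218 and 223. Fcer1g, an adaptor chain that carries an activating motif and is shared with NK cells, was at 1302 and 1198 CPM in members against 1744 and 1736. Cd160, a receptor of NK and intraepithelial T cells, was at 211 and 251 CPM against 211 and 239. Of the 5 markers that the rule did not use, only Trgc1 was higher in members than in CD8 alpha-alpha cells in both libraries, and Fcer1g and Cd160 mark neither population against the other here.

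**Figure D2:**
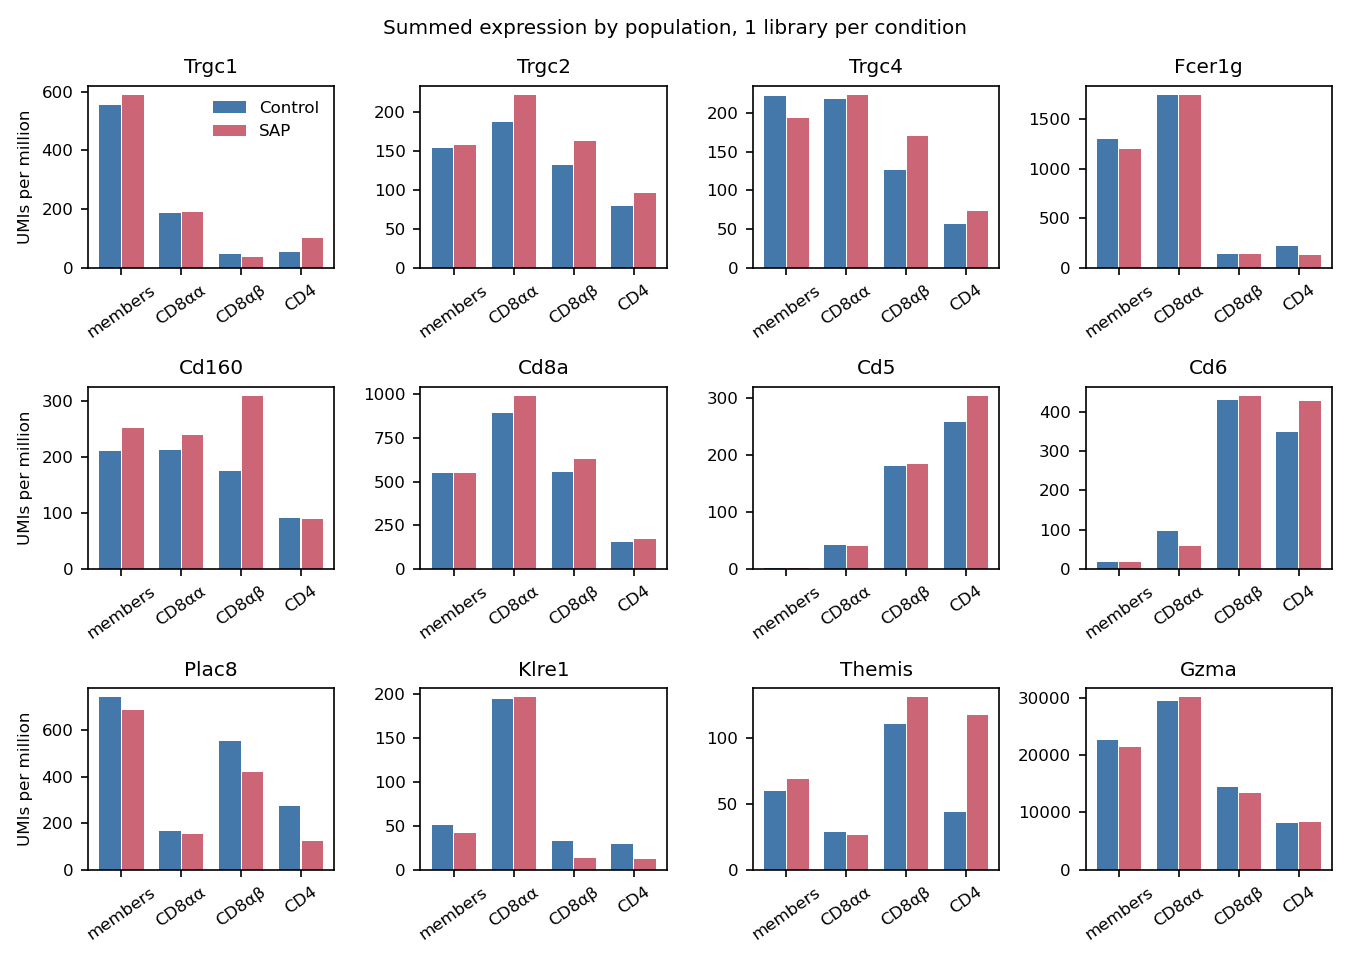
Levels in CPM (vertical axes) of 12 genes in members, CD8 alpha-alpha, CD8 alpha-beta and CD4 cells, with Control bars in blue and SAP bars in red. Trgc1 and Plac8 bars are tallest in members, Cd5 and Cd6 bars are close to 0 there, and Fcer1g bars are tall in members and CD8 alpha-alpha cells alike.

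Some variable segments were higher in members. Trdv2-2, a delta variable segment, was at 32.9 and 33.4 CPM in members, 10.4 and 12.6 in the other kept barcodes and 1.54 and 0 in CD8 alpha-alpha cells. Against the latter it was 21.4-fold higher (8.84 to 67.4) in Control, and at least 34.0-fold higher in SAP when 3 UMIs are set in place of the 0 found. CD8 alpha-alpha cells were chosen with no Trdc UMI and members with at least 2. The Trdv2-2 ratio, of a segment of the same chain, is thus in part set by that choice and is a description. Trgv7, a gamma variable segment, was at 26.1 and 31.2 CPM against 4.62 and 2.63, which is 5.65-fold (3.21 to 10.6) and 11.9-fold (5.76 to 28.4). Trgv1 was at 32.9 and 24.1 CPM against 12.02 and 9.85.

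Other segments were shared or rare. Trgv2 was at 118 and 136 CPM in members and at 133 and 144 in CD8 alpha-alpha cells. The delta segments Trdv1, at 12.5 and 14.9 CPM, Trdv4, at 8.23 and 9.29, and Trdv5, at 13.6 and 13.7, were low, and each was found in 18 to 34 members of a library. Trgv5 and Trgv6, the segments known from skin and from reproductive and other barrier tissues, had 1 UMI each in each library, and no Trdv2-1 UMI was found in members.

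The other kept barcodes were a mixed set, of which 33.5% and 34.6% had a Trdc UMI themselves. These contrasts share their cells with the rule and are a description. Among 5788 genes, 4 passed 2-fold upward in both libraries (0.0691%) and 25 downward (0.432%), while 303 passed downward when barcodes over the Rps19-ps6 limit were left in. Against the other kept barcodes without Trdc, a comparison added after the data were seen, 11 passed upward and 43 downward. The 4 higher genes were Trdv2-2, the predicted gene Gm19705, Mcm8 and Sox4. Of the 87 Mcm8 UMIs of Control members 96.6% came from 1 cell, as did 63.4% of the 131 Sox4 UMIs of SAP members. In the opposite library the top cell held less, 7 of 22 Mcm8 UMIs in SAP and 7 of 34 Sox4 UMIs in Control. The ratios there were 7.58 (3.80 to 15.4) for Mcm8 and 5.03 (3.07 to 8.21) for Sox4. Member levels there were 8.17 and 12.2 CPM, under the 20 CPM minimum, which each gene met only in its other library. These ratios are therefore a description. With the top cell of each gene left out, 2 genes passed 2-fold upward. Just under that fold stood Plac8, at 744 and 689 CPM against 407 and 354, Trgv7, Trgc1 and Dpp4, a surface peptidase also called CD26, at 33.7 and 33.1 CPM against 16.2 and 20.1. Without the Trdc barcodes in the comparison the ratios were 2.49 and 2.66 for Plac8, 6.12 and 8.81 for Trgv7, 4.15 and 4.42 for Trgc1 and 2.38 and 1.90 for Dpp4, so Plac8, Trgv7 and Trgc1 then lay past 2-fold in both libraries.

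Il17a, described with its list further on, had the lowest ratios to the other kept barcodes, followed by surface molecules of conventional T cells. Cd5, which dampens receptor signalling, had 6 and 5 UMIs in all members, or 2.15 and 1.86 CPM, against 82.1 and 78.0 CPM in the other kept barcodes, a ratio of 0.0262 (0.00959 to 0.0571) and 0.0238 (0.00772 to 0.0557). Cd28, the costimulatory receptor, was at 3.22 and 1.86 CPM against 62.7 and 63.8, and Cd6, a relative of Cd5, at 18.3 and 17.5 against 160 and 163. Cd2, the adhesion receptor for CD48, was at 5.01 and 4.46 CPM against 27.3 and 26.2. In the list of coreceptors and conventional surface genes 4 of 8 measured genes were lower, beside 0.432% of all genes, and none was higher. The median log2 ratio of the list was -1.66 and -2.001, where the median over all genes was 0.01 and 0.02. Against CD8 alpha-alpha cells, of 5 measured genes of this list Cd5 and Cd6 were lower and Il7r was higher.

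Of 8 measured genes of the TNF and CD28 family list, Cd28, Tnfrsf4 and Icos were at least 2-fold lower in members and none was higher. Over all genes 0.432% were lower and 0.0691% higher. Against CD8 alpha-alpha cells none of 5 measured genes of this list passed 2-fold, where 0.323% of all genes passed upward and 0.272% downward. The contrast with the mixed set was thus not seen against those cells, and genes too low to measure there were not compared. Tnfrsf4 (OX40) was at 2.51 and 2.23 CPM against 29.0 and 21.7, and Icos at 6.44 and 6.31 against 48.3 and 54.0. Il17a, the cytokine of gamma delta and helper cells of type 17, had 2 and 2 UMIs in members, or 0.716 and 0.743 CPM, against 35.7 and 35.3. Maf, a factor of such cells, was at 29.0 and 27.9 CPM against 90.5 and 92.6, and Il18r1 at 1.79 and 2.97 against 22.8 and 22.8. Igkc was lower as well, at 23.6 and 0.743 CPM against 1032 and 6.20. The B and plasma cell list summed to 89.9 and 37.5 CPM in members and to 1281 and 54.3 in the other kept barcodes, and its part in the results was not tested.

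Cytokine and receptor genes of the type 17 gamma delta program were scarce. Il17f had 1 and 1 UMIs and Il23r 1 and 1. Of the 6 genes of that list that could be measured against the other kept barcodes, Rora, Il17a, Maf and Il18r1 were at least 2-fold lower. None was higher, and 0.432% of all genes were lower. Against CD8 alpha-alpha cells none of 4 measured genes of the list passed 2-fold. The list summed to 210 and 212 CPM in members, 240 and 210 in CD8 alpha-alpha cells and 2068 and 2018 in CD4 cells. Low levels of this list were thus not particular to members. The 8 markers of NK and innate lymphoid cells summed to 116 and 103 CPM in members, against 162 and 168 in the other kept barcodes, and 3 and 2 of them had no UMI. Ncr1 had 0 and 2 UMIs, Klra8 had 0 and 0, where a count of 0 leaves room for at most 1.32 and 1.37 CPM (exact Poisson 95% limit), and Eomes was at 3.58 and 1.49 CPM. Klrb1c was at 9.31 and 10.8 CPM against 9.11 and 7.62, and most of the sum came from Gata3, at 58.0 and 56.1 CPM, and Il7r, at 43.3 and 33.4, which T cells also express. The 8 dendritic and myeloid markers summed to 210 and 209 CPM, against 208 and 203 in the other kept barcodes, and 2 of them had no UMI in members, Lyz2 among them. Itgax, the integrin chain CD11c, was at 66.2 and 62.4 CPM against 55.1 and 51.9, and H2-Ab1, an MHC class II chain, at 10.4 and 9.29 against 7.45 and 6.07. The part of RNA from such cells in the results was not tested.

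Of epithelial markers, Btnl1, Btnl6 and Reg3g had no UMI in members, while Epcam was at 85.6 and 91.7 CPM in members and at 20.1 and 9.41 in CD8 alpha-beta cells. Of 14 epithelial markers 8 and 5 had no UMI in members and the list summed to 98.5 and 110 CPM, near the 89.2 and 119 of the other kept barcodes, and its part in the results was not tested.

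Of the 3 alpha-beta populations, CD8 alpha-alpha cells had the fewest genes past 2-fold against members. They were also the largest, with 3245392 and 3047080 summed UMIs, against 1092841 and 1169298 in CD8 alpha-beta and 589492 and 492066 in CD4 cells. The part of population size in this ranking was not tested. Of 5876 genes 19 passed 2-fold upward in members of both libraries (0.323%) and 16 downward (0.272%), or 101 downward with the barcodes over the Rps19-ps6 limit left in. Plac8, a small cysteine-rich protein, was at 744 and 689 CPM against 167 and 153, or 4.46-fold (4.05 to 4.91) and 4.49-fold (4.06 to 4.98) higher. Dpp4 was at 33.7 and 33.1 CPM against 7.40 and 6.56, or 4.55-fold (2.88 to 7.45) and 5.04-fold (3.07 to 8.64). Scin, which severs actin filaments, was at 77.3 and 55.0 CPM against 22.2 and 13.8. For each of these genes the lower member value lay at least 2-fold above the higher value of CD8 alpha-alpha cells.

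Themis, Tcf7 and Il7r were also at least 2-fold higher in members. None of 12 measured genes of the list of the BCL2 family and survival passed, near the 0.323% upward and 0.272% downward of all genes. Themis, which tunes receptor signals in thymocytes, was at 59.8 and 69.5 CPM against 28.7 and 26.6. Tcf7, the factor TCF-1, was at 70.9 and 66.9 CPM against 33.9 and 26.3. The members with 3 or more UMIs of the granule gene Gzma, described further on, had Tcf7 at 9.52 and 13.4 CPM, and those with fewer at 302 and 255. The former lay below CD8 alpha-alpha cells taken whole, and Tcf7 was not compared with CD8 alpha-alpha cells split by Gzma. Members with fewer made up 17.4% and 20.6% of all members, against 8.23% and 9.03% of CD8 alpha-alpha cells. Il7r, the receptor for the survival cytokine IL-7, was at 43.3 and 33.4 CPM against 18.5 and 14.4. Cd247, the CD3 zeta chain, was at 124 and 129 CPM against 62.2 and 52.8, just under 2-fold in Control. Cd8a was at 547 and 546 CPM in members, against 895 and 992 in CD8 alpha-alpha cells, which were chosen by it.

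Several receptors of the NK type were lower in members than in CD8 alpha-alpha cells. Of 12 measured genes of that list 6 were at least 2-fold lower and none higher, with a median log2 ratio of -0.64 and -0.91, where the median over all genes was -0.01 and 0.01. Klra7, a Ly49 receptor, was at 4.65 and 2.97 CPM against 74.0 and 110, and Klra6 at 6.80 and 7.06 against 50.5 and 60.7. Klre1, a lectin-like receptor of the same gene complex, was at 50.8 and 42.0 CPM against 194 and 197, a ratio of 0.261 (0.216 to 0.314) and 0.213 (0.173 to 0.261). The other lower genes of the list were Klra1, Klra5 and Klrb1a. Genes of the Ly49 family are much alike in sequence, so their separate counts are uncertain.

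Of the innate adaptor genes 1 was lower. Tyrobp (DAP12), a signalling chain of activating receptors of NK and myeloid cells, was at 493 and 537 CPM in members against 1120 and 1118, a ratio of 0.440 and 0.480. The remaining 9 measured genes of the list of innate adaptors did not pass 2-fold: Hcst (DAP10) was at 845 and 766 CPM against 610 and 597, and Lat2 at 143 and 154 against 174 and 185. Cd5 and Cd6 were low in members also here, at 2.15 and 1.86 CPM against 41.6 and 39.7 for Cd5. Members therefore had Fcer1g in common with CD8 alpha-alpha cells, at a lower level that did not pass 2-fold. They held less of Tyrobp, Cd5 and the Ly49 genes Klra1, Klra5, Klra6 and Klra7.

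**Figure D3:**
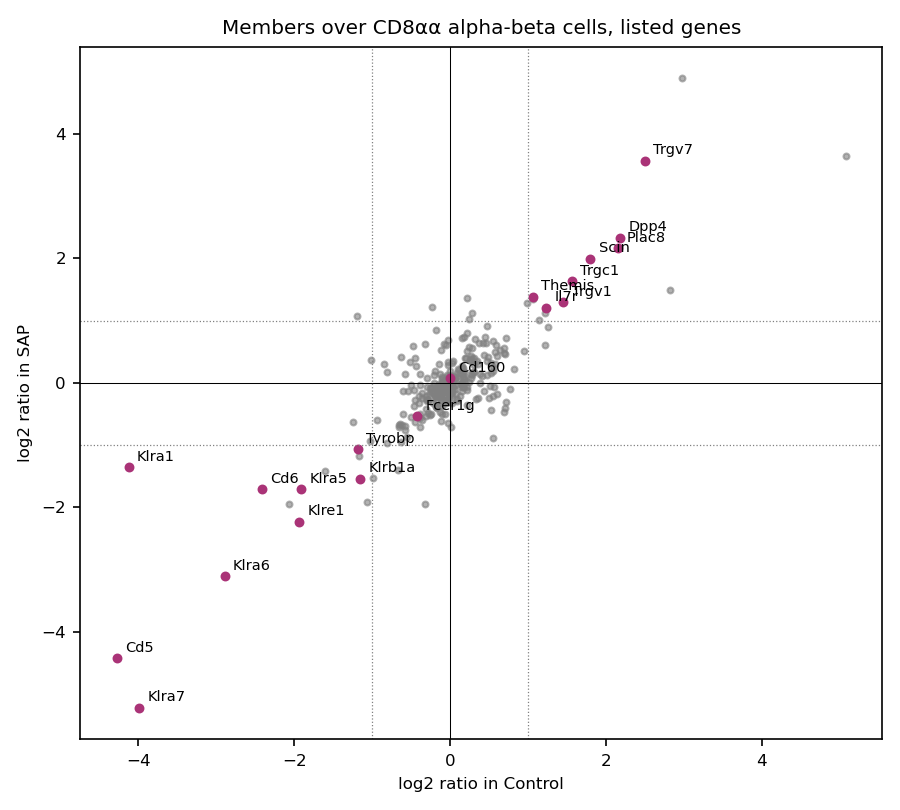
Log2 ratio of members over CD8 alpha-alpha cells in Control (horizontal axis) and SAP (vertical axis) for 309 listed or named genes with at least 20 CPM, 1 point per gene, with dotted lines at 2-fold. Plac8, Dpp4, Trgv7 and Trgc1 lie high in both libraries, and Cd5, Klra7, Klra6 and Klre1 low in both.

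None of 13 measured granule genes passed 2-fold between members and CD8 alpha-alpha cells in both libraries, and their median log2 ratio was -0.05 and -0.09. Over all genes 0.323% passed upward and 0.272% downward, so a count of 0 in this list shows nothing particular to it. Gzma, a granule protease, was at 22578 and 21397 CPM in members and 29408 and 30155 in CD8 alpha-alpha cells. Gzmb was at 4365 and 4493 against 4750 and 4874, and Nkg7, a granule membrane protein, at 1216 and 1248 against 1378 and 1535. The chemokine Ccl5 was at 37501 and 33387 CPM against 42817 and 38773. None of 15 measured residency and gut homing genes passed 2-fold either, which is also near the share over all genes. Itgae, the integrin chain CD103 that binds epithelial cadherin, was at 584 and 637 CPM against 612 and 658. Ccr9, the gut homing receptor, was at 185 and 187 CPM against 149 and 115.

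Against CD8 alpha-beta cells 129 of 5917 genes were at least 2-fold higher in members (2.18%) and 40 lower (0.676%). Fcer1g was at 1302 and 1198 CPM against 144 and 140, or 9.06-fold (7.72 to 10.7) and 8.54-fold (7.30 to 10.1) higher. At a depth of 1000 UMIs 57.7% and 55.4% of members had an Fcer1g UMI, 65.5% and 69.1% of CD8 alpha-alpha cells, 6.71% and 6.69% of CD8 alpha-beta cells and 13.0% and 5.08% of CD4 cells. At full depth the member shares were 72.4% and 69.4%, and those of CD4 cells 19.3% and 6.72%. The members' shares lay above those of both conventional populations, which serve as the background level for this gene.

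Other genes of the innate adaptor list followed Fcer1g. Of 10 measured, 6 were at least 2-fold higher than in CD8 alpha-beta cells and 1, Sh2d1a, lower. Clnk, an adaptor of the SLP-76 family, was at 38.3 and 43.1 CPM against 5.49 and 6.84, Lat2 at 143 and 154 against 49.4 and 41.9, and Tyrobp at 493 and 537 against 101 and 77.8. Ikzf2 (Helios), a factor of unconventional and regulatory T cells, was at 1299 and 1313 CPM against 536 and 397, and Kit, the stem cell factor receptor, at 135 and 112 against 24.7 and 20.5. Of 10 inhibitory receptor genes Lag3, Cd200r2, Cd200r4 and Entpd1 were higher and Ctla4 was lower: Lag3 was at 165 and 150 CPM against 68.6 and 51.3, and Ctla4 at 59.8 and 67.2 against 150 and 156.

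Less familiar genes were among those farthest from CD8 alpha-beta cells. Zmat4, a zinc finger gene, was at 21.8 and 23.03 CPM in members and had no UMI in CD8 alpha-beta cells, so that it was at least 7.96-fold and 8.98-fold higher with 3 UMIs set in place of 0. Itih5, a hyaluronan-binding protein gene, was at 50.5 and 51.3 CPM against 4.58 and 5.13, and Napsa, an aspartic protease gene, at 66.9 and 56.5 against 3.66 and 5.99. Of 7 measured coreceptor and conventional surface genes, 6 were at least 2-fold lower: Cd5, Cd6, Cd28, Thy1, Cd2 and Il7r. Thy1, a common T cell surface protein, was at 39.0 and 42.7 CPM against 132 and 168.

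Against CD4 cells 256 of 6161 genes were higher (4.16%) and 166 lower (2.69%). Of 13 measured granule genes 5 were at least 2-fold higher in members, among them Gzma, at 22578 and 21397 CPM against 8204 and 8403, and Prf1 (perforin), at 32.9 and 39.0 against 10.2 and 12.2. Itgae, at 584 and 637 CPM against 231 and 242, and Itga1, the collagen-binding integrin CD49a, at 298 and 370 against 86.5 and 106, were higher as well. All 7 measured genes of the type 17 list and 6 of 9 of the TNF and CD28 family list were at least 2-fold lower. In Control the CD4 population also held Igkc at 12723 CPM, against 4.06 in SAP, and the part of plasma cell RNA in its ratios was not tested.

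Members differed among themselves in which gamma constant gene was seen. Only Trgc1 was detected in 226 (26.6%) and 202 (26.7%) of them, only Trgc4 in 74 (8.71%) and 60 (7.93%), only Trgc2 in 43 (5.06%) and 33 (4.36%), and none in 128 (15.1%) and 98 (12.9%). In CD8 alpha-alpha cells the order was another, with Trgc4 alone in 18.4% and 15.8% and Trgc1 alone in 8.46% and 5.78%. Members with none of the 3 had fewer UMIs, with medians of 2576 and 2780.

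Trgv7 and Trgv2 were each seen more often in members that had the constant gene of their own cluster. Trgv7 was found in 10.1% and 12.04% of members with Trgc1 and in 2.83% and 2.30% of those without. Trgv2 was found in 40.1% and 52.1% of members with Trgc2 and in 19.97% and 20.4% of those without. Members with a constant gene had more UMIs than those without it, for Trgc1 3269 and 3523 against 2865 and 3108. At a depth of 1000 UMIs the shares for Trgv7 with and without Trgc1 were 3.76% and 1.42% in Control and 5.81% and 1.43% in SAP, and those for Trgv2 with and without Trgc2 were 22.02% and 9.94%, and 22.5% and 11.8%. For Trgv1 with Trgc4 the shares were 13.7% against 5.48% in Control and 8.89% against 6.56% in SAP, and at equal depth the order turned in SAP, at 1.60% against 2.32%. A pair from different clusters also went together at full depth: Trgv2 was found in 31.7% and 35.9% of members with Trgc4 and in 22.9% and 28.5% of those without, and at equal depth in 13.3% and 16.0% against 11.1% and 12.7%. The gap for that pair was smaller than for Trgv2 with Trgc2 in both libraries.

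Few genes passed 2-fold in both libraries between members with only Trgc4 and members with only Trgc1. Of 4275 genes 15 were at least 2-fold higher with Trgc4 only (0.351%) and 12 lower (0.281%), and each rested on few UMIs. With barcodes thinned to 1000 UMIs 0 were higher. Thinning removes UMIs, so genes with few of them can fall below the minimum for a comparison. That count of 0 therefore cannot decide whether the sets were alike. Rgs10, a regulator of G protein signalling, was at 81.8 and 80.8 CPM with Trgc4 only against 36.7 and 31.4, or 2.23-fold (1.19 to 4.15) and 2.57-fold (1.25 to 5.17). Itga4, the alpha 4 chain of gut homing integrin, was at 97.4 and 111 CPM against 39.6 and 47.9. Klrh1, a lectin-like receptor, was lower, at 15.6 and 30.3 CPM against 119 and 73.3. Klra5 was at 35.1 and 95.9 CPM against 10.3 and 35.9.

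Members also differed among themselves in the granule genes. By Gzma UMIs 78 and 92 members had none, 70 and 64 had 1 or 2, and 34 and 38 had 3 to 11. Of the rest 171 and 122 had 12 to 49, 249 and 194 had 50 to 99, and 248 and 247 had 100 or more. The ranges are of unequal width, so these numbers do not by themselves show a gap between low and high counts. The limit of 2 Gzma UMIs used below was set after these values were seen. At most 2 were found in 148 members of Control, or 17.4% (14.9 to 20.1), and in 156 of SAP, or 20.6% (17.8 to 23.7). With a limit of 0 the shares were 9.18% and 12.2%, and with a limit of 11 they were 21.4% and 25.6%. By the same limit of 2 the share was 17.6% and 20.3% in the other kept barcodes, 8.23% and 9.03% in CD8 alpha-alpha cells, 15.7% and 16.4% in CD8 alpha-beta cells and 42.9% and 40.3% in CD4 cells.

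Members low in Gzma were not shallow barcodes, with medians of 3936.5 and 3862.5 UMIs against 3069.5 and 3320 in the rest of the members. Gzmb was found in 14.9% and 12.2% of them and in 98.0% and 96.0% of the others. Tcf7 was found in 62.2% and 53.2% against 1.99% and 2.66%, and Xcl1, a chemokine for cross-presenting dendritic cells, in 48.0% and 51.9% against 5.98% and 8.99%. At a depth of 1000 UMIs the shares were 4.17% and 2.0% against 92.2% and 91.9% for Gzmb, 20.8% and 22.7% against 0.448% and 0.173% for Tcf7, and 35.4% and 36.0% against 3.29% and 4.15% for Xcl1. The contrast between the sets was thus present at equal depth.

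**Figure D4:**
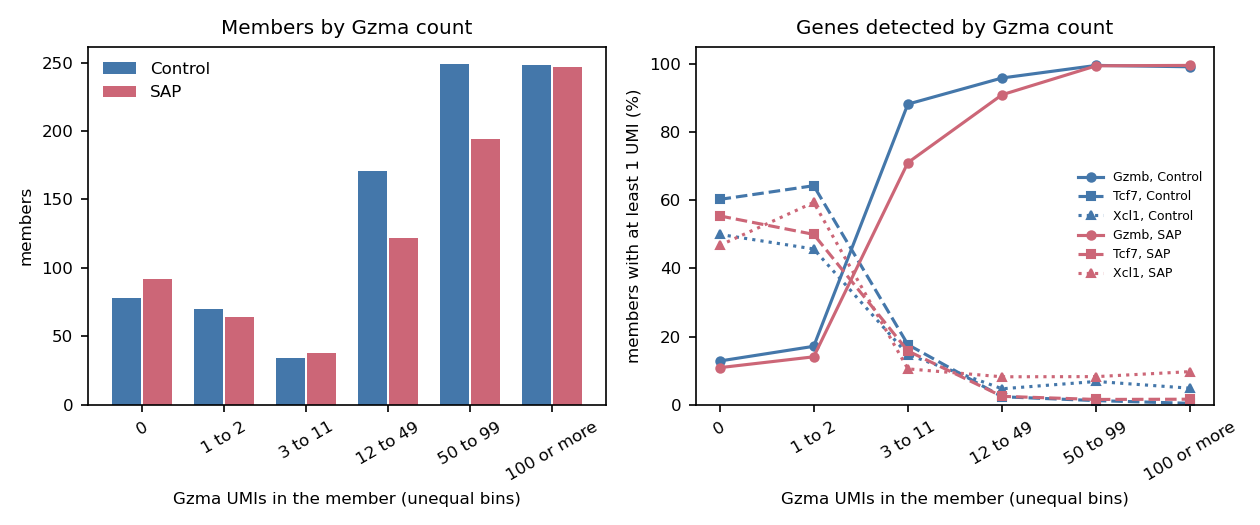
Number of members by Gzma UMIs (left) and percent of members with a UMI of Gzmb, Tcf7 or Xcl1 in each range (right), for Control and SAP. The ranges are of unequal width. Between the ranges of 1 to 2 and 3 to 11 Gzma UMIs the share with Gzmb goes from 17.1% and 14.1% to 88.2% and 71.1%, and the share with Tcf7 from 64.3% and 50% to 17.6% and 15.8%.

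Of 6217 genes 76 were at least 2-fold higher in the members low in Gzma (1.22%) and 238 lower (3.83%), and the median over all genes was -0.12 and -0.12 on the log2 scale. Xcl1 was at 951 and 1042 CPM against 38.5 and 76.8, or 24.7-fold (19.6 to 31.4) and 13.6-fold (11.4 to 16.2). Tcf7 was at 302 and 255 CPM against 9.52 and 13.4, and its relative Lef1 at 34.1 and 52.1 against 1.36 and 2.86. Id3, an inhibitor of E proteins, was at 69.9 and 60.5 CPM against 3.17 and 6.20, and Satb1, a chromatin organiser of T cells, at 150 and 193 against 19.5 and 18.6.

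Surface receptors went both ways. Kit was at 315 and 237 CPM in members low in Gzma against 87.0 and 76.8, Cd160 at 372 and 475 against 168 and 188, Il7r at 98.9 and 57.1 against 28.5 and 26.7, and Thy1 at 86.9 and 84.0 against 26.3 and 31.0. Ltb, a lymphotoxin chain, was at 442 and 302 CPM against 104 and 92.0. Of 11 measured NK receptor genes Cd160 was at least 2-fold higher and 6 were lower, among them Klrd1 (CD94), at 205 and 262 CPM against 1153 and 1085. Of 10 inhibitory receptor genes 7 were lower and none higher, such as Lag3, at 68.2 and 62.2 CPM against 191 and 175.

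Effector genes were low together with Gzma. Of 13 measured granule genes 8 were at least 2-fold lower. Gzmb was at 49.4 and 97.4 CPM against 5512 and 5741, and Gzmk had no UMI against 85.6 and 103 CPM, at least 16.7-fold and 20.5-fold lower. Prdm1 (Blimp-1), a factor of effector differentiation, was at 3.41 and 3.36 CPM against 112 and 111, and Ccl4 at 47.7 and 25.2 against 894 and 909. Trgc1 was at 329 and 391 CPM against 613 and 646, Trgc4 at 263 and 207 against 210 and 190, and the CD3 chain genes Cd3d and Cd3e at 868 and 885 against 871 and 849, and at 1199 and 1154 against 1868 and 1825. Trgv7 was at least 2-fold lower in the members low in Gzma, at 11.9 and 11.8 CPM against 29.9 and 36.7. The gamma constant genes and Cd3d were thus found in both sets, with less Trgc1 and Trgv7 in the members low in Gzma.

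The share of members was near equal in the libraries. The member share was 15.1% and 15.2%, and when all barcodes were first thinned to 1000 UMIs it was 10.4% (9.62 to 11.3) and 10.7% (9.78 to 11.6). Within members the SAP level divided by the Control level was 1.07 (0.993 to 1.14) for Trgc1, 0.875 (0.777 to 0.984) for Trgc4 and 0.920 (0.877 to 0.965) for Fcer1g. The ratio was 0.948 (0.937 to 0.958) for Gzma and 0.890 (0.882 to 0.898) for Ccl5, and in the other kept barcodes these were 0.966 and 0.912. None of 13 measured granule genes and none of 5 chemokine genes passed 1.5-fold, where 2.81% of all genes passed upward and 0.637% downward, so these zeros show nothing particular to the groups.

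Of 5655 genes 159 were at least 1.5-fold higher in SAP members (2.81%) and 36 lower (0.637%), and the median over all genes was 0.06 on the log2 scale. With scaling by the trimmed mean of M values, which lowered each ratio by 0.08 on the log2 scale, the counts were 91 and 68, and with median-of-ratios scaling 114 and 56, so the surplus of higher genes depends on the scaling. The genes named here had intervals that did not include 1 and no cell that held over 10% of a library's UMIs. Nhlrc2 was at 12.9 CPM in Control against 29.7 in SAP members, or 2.31-fold (1.54 to 3.52), against 1.11 (0.946 to 1.31) in the other kept barcodes. Pofut1, an enzyme that attaches fucose to Notch and other proteins, was at 9.31 and 20.8 CPM, a ratio of 2.23 (1.38 to 3.71) against 1.08 in the other kept barcodes.

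The next genes named were also higher in SAP members. Vav1, an exchange factor downstream of the T cell receptor, was at 22.9 CPM in Control against 44.2 in SAP members, or 1.93-fold (1.41 to 2.66), against 0.980 (0.870 to 1.10) in the other kept barcodes. It was the 1 gene of 17 in the list of CD3 and proximal signalling genes that passed 1.5-fold upward, a share that 1 gene decides, beside 2.81% of all genes. Washc3, a subunit of the endosomal WASH complex, was at 16.5 and 34.2 CPM. Other genes of this set were Spata5, Ddhd1, Entr1, Ebag9, Rsrc1, E4f1 and Bnip1, with ratios from 1.88 to 2.24, and from 1.03 to 1.42 in the other kept barcodes.

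Among the lower genes, Mir142hg, the host transcript of a blood cell microRNA, was at 75.9 CPM in Control against 42.7 in SAP members, or 0.563-fold (0.445 to 0.709), against 0.801 (0.724 to 0.886) in the other kept barcodes. Mt2, a metallothionein, was at 84.1 and 47.5 CPM, a ratio of 0.565 (0.452 to 0.704) against 0.742 (0.671 to 0.820). Klrh1 was at 120 and 70.6 CPM, a ratio of 0.590 (0.491 to 0.707) against 0.978 (0.918 to 1.04), and was detected in 68 and 53 members. The other lower genes were Zbtb2, Nipal3, Plrg1, Aasdhppt, Uap1, Fam126b, Rpia, Ccdc9 and Polr2l, with ratios from 0.564 to 0.628. With barcodes thinned to 1000 UMIs the direction of Ccdc9 turned, to a log2 ratio of 0.29.

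**Figure D5:**
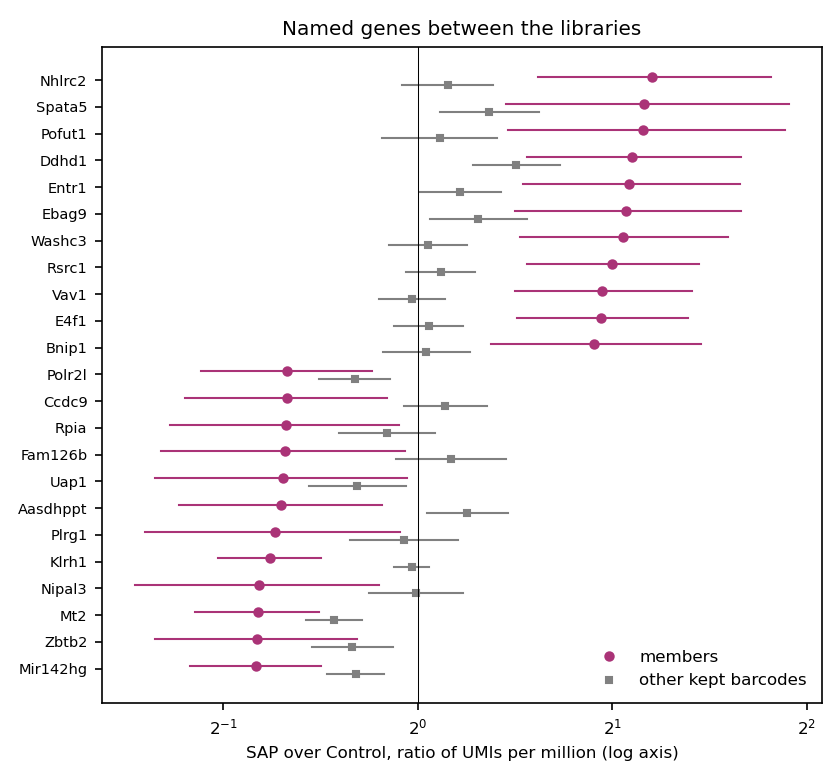
Ratio of SAP over Control (log axis) of 23 named genes within members (circles) and within the other kept barcodes (squares), with 95% intervals of counting error as bars. The member ratios lie between 0.563 and 2.31, and most ratios of the other kept barcodes lie nearer to 1. The genes were chosen by their member ratios.

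Of the listed genes few passed 1.5-fold between the libraries. Trgv4 was at 15.8 and 27.1 CPM, a ratio of 1.72 (1.17 to 2.56), against 1.35 in the other kept barcodes. Klrc2 was at 11.1 and 21.5 CPM in 18 and 28 members, and Myc, a regulator of growth, at 17.5 and 29.7 CPM in 35 and 58. Klf2, a factor that drives egress receptors, was at 11.1 and 25.3 CPM, with up to 29.0% of its UMIs in 1 cell, and Stmn1 and Sox4 were carried in SAP by 1 cell with 56.2% and 63.4% of their UMIs. Ifi27l2a, an interferon-induced gene, was lower, at 65.9 and 39.7 CPM, a ratio of 0.603 (0.471 to 0.770) against 0.886. Igkc was at 23.6 and 0.743 CPM and Igha at 30.4 and 9.29, and both were lower in the other kept barcodes of SAP too.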

How the data were processed

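The authors deposited, per library, a matrix of raw UMI counts per gene and barcode for 55357 genes. Per the file headers the counts came from Cell Ranger 7.1.0, and the submitters' processing notes name mm10, Cell Ranger and Seurat; the annotation release is not given in the sources used here. The members and gene lists were chosen with earlier results of these data known. Counts were summed over the barcodes of a population and divided by all its UMIs. Ratios carry exact conditional binomial 95% intervals. Genes were compared with at least 20 CPM in 1 sum and 50 UMIs over the sums compared, at 2-fold in both libraries between populations and 1.5-fold between libraries. The named genes were those with the largest and smallest ratios (nearer of the libraries), without rule genes, mitochondrial, ribosomal, Gm and Rik genes. A few genes are not reported here. Listed genes were followed throughout, and Gm19705 was named after its values were seen. Shares at equal depth used barcodes thinned to 1000 UMIs, without shallower ones (813 and 729 members stayed). Doublets were kept, since Scrublet called 0 and 0 automatically; removing the 254 and 197 highest scores was an alternative. Sequences came from GENCODE on GRCm38, matched by gene identifier. The steps used Python 3.11.15, scanpy 1.11.5, and edgeR 4.0.16 and DESeq2 1.42.0 for scaling factors only. The ratios, their intervals and the thinning were tested on simulated counts that varied independently, with no clumping of UMIs in single cells. That simulation cannot show how the intervals hold for genes carried by few cells.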

Additional observations from a re-analysis of the deposited data

Results flagged for a closer look

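Among 5788 genes, the following differed from the other kept barcodes in opposite directions in the libraries, with both intervals away from 1, and the difference between the libraries was not tested. The intervals were not adjusted for the number of genes, and the part of counting error in this list was not tested. The ratio of members over the other kept barcodes in Control and then SAP was above 1 and then below it for Aasdhppt (1.34 and 0.690), Brwd3 (1.34 and 0.685), Mt1 (1.41 and 0.775), Reep3 (1.27 and 0.767), Snhg16 (1.27 and 0.722) and Trim56 (1.32 and 0.752). It was below 1 and then above it for Acbd3 (0.811 and 1.203), E4f1 (0.717 and 1.33), Gm45343 (0.728 and 1.22), Nhlrc2 (0.677 and 1.40) and Rsrc1 (0.712 and 1.31). Of the barcodes left out before selection, 5 in Control and 8 in SAP met the members' rule on Trdc, Trac, Cd4, Cd8b1 and Mki67.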

How the results depend on the processing

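Genes past the fold (higher and lower) numbered 4 and 25 against the other kept barcodes, 19 and 16 against CD8 alpha-alpha cells, 15 and 12 for Trgc4-only over Trgc1-only members and 159 and 36 for SAP over Control. With at least 1 Trdc UMI 7 genes were higher than in the other kept barcodes. With at least 3, 7 were higher with Trgc4 only and 74 lower in SAP. Without the Rps19-ps6 limit 303 were lower than in the other kept barcodes and 101 lower than in CD8 alpha-alpha cells. Trimmed-mean scaling gave 28 lower with Trgc4 only, and 91 and 68 for SAP over Control; median-of-ratios scaling gave 19 and, for SAP, 56 lower. With 20 UMIs and no CPM minimum the counts were 83 and 388, 100 and 101, 56 and 108, and 857 and 324, and with 50 CPM and 100 UMIs 0 and 13, 8 and 8, 1 and 3, and 15 and 7. Mean CPM per cell gave 24 lower with Trgc4 only, and 239 and 88 for SAP. Thinning gave 0 higher with Trgc4 only and 122 lower in SAP. Without the top cell of each gene 2 were higher than in the other kept barcodes, and 8 and 30 differed with Trgc4 only. In alternatives added after seeing the data, members with Trgc1 gave 79 lower in SAP, and other kept barcodes without Trdc gave 11 and 43. Signs of log2 ratios changed for Gzmb in SAP over Control (to -0.0311 with 1 Trdc UMI, to -0.0157 with 3, to -0.0375 under trimmed-mean and to -0.0391 under median-of-ratios scaling, and to -0.008 with mean CPM), Tyrobp over the other kept barcodes in SAP (0.0055, mean CPM), Ccdc9 in SAP over Control (0.29, thinned) and Il17a over CD8 alpha-alpha cells in Control (0.22, without the top cell); the cause was not tested. The member share ranged from 10.1% to 19.9% in Control and from 10.7% to 20.3% in SAP under its 7 alternatives, and was higher in SAP in each. No paired analysis was possible because each group has 1 library. Depth limits most the genes under 20 CPM, which were not compared.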
